A study of Triticum aestivum with 12 samples.

Results

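The data set measured how far developing grains of bread wheat (Triticum aestivum) of 2 genotypes changed in different ways between 14 and 28 days after anthesis (DAA). The unit examined was the genotype by stage interaction: the change from 14 to 28 DAA in IITR26 minus the change from 14 to 28 DAA in WL711, on a log2 scale. It was computed for all 61179 probe sets of the Affymetrix wheat array that are not control features, of 61290 in all, and the 12 arrays of the series all took part. IITR26 is a landrace and WL711 a cultivar, chosen by the study for contrasting mineral levels in the grain. The groups were IITR26 at 14 DAA, IITR26 at 28 DAA, WL711 at 14 DAA and WL711 at 28 DAA, with 3 arrays each and RNA from 3 field-grown grains per array. No treatment was applied to any group, and each genotype was 1 line, so a difference between genotypes is a difference between these lines.

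A wheat grain passes through overlapping phases after anthesis. Cells of the endosperm divide first, starch and storage proteins then fill them, and late in development the embryo and the aleurone take on proteins that protect tissue as it dries. Each sample held embryo, endosperm, aleurone and maternal coats together, so fewer cells of a type and less RNA per cell cannot be told apart in any result below.

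A positive interaction means that the transcript moved further upward in IITR26 than in WL711 between the stages, and a negative one that it moved further downward. A genotype difference of the same log2 size at both stages gives an interaction of 0. A probe set was called where the limma fit over all probe sets gave a Benjamini-Hochberg adjusted p of at most 0.01 and an absolute log2 value of at least 2, the thresholds that the study's methods name. An interaction of 2 is a ratio of stage ratios of 4. The deposited values are centred on the median of the 12 arrays for each probe set, so every value given here is a log2 distance from that median and says nothing about how abundant a transcript was.

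The interaction was called for 933 of 61179 probe sets (1.53%), of which 446 were positive (0.729%) and 487 negative (0.796%). The median interaction over all probe sets was -0.00406. For comparison, 836 probe sets differed between the genotypes at 14 DAA (1.37%) and 838 at 28 DAA (1.37%), while 1785 changed between the stages in IITR26 (2.92%) and 1405 in WL711 (2.3%). Of the 933 interactions, 658 were called with the same sign in each of the 12 fits that left out 1 array.

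Arrays of one group did not all resemble each other equally. Over all probe sets, the centred values of replicates correlated most closely in WL711 at 14 DAA (0.883 to 0.903) and IITR26 at 28 DAA (0.831 to 0.879). Correlations were lower in IITR26 at 14 DAA (0.59 to 0.729) and lowest in WL711 at 28 DAA (0.286 to 0.672). Correlations of centred values also depend on how far a group lies from the median, so they do not rank replicate agreement. The median SD within a group was largest in IITR26 at 28 DAA (0.177), then in WL711 at 28 DAA (0.162). It was 0.133 in IITR26 at 14 DAA and 0.127 in WL711 at 14 DAA. WL711 28 DAA replicate 1 stood apart by correlation, at 0.286 to 0.412 with its own group and at 0.365 to 0.395 with IITR26 at 28 DAA. It did not stand apart by array weight, at 0.641 beside 0.647 for replicate 3 of its group. The lowest array weight was that of IITR26 28 DAA replicate 2 (0.482). The spread of the values within an array also followed the groups: arrays of IITR26 at 28 DAA (SD 0.597 to 0.685) and WL711 at 14 DAA (0.597 to 0.631) were broader than arrays of IITR26 at 14 DAA (0.297 to 0.349) and WL711 at 28 DAA (0.373 to 0.419). The counts below are also given after all arrays were given one distribution (quantile normalization), and without WL711 28 DAA replicate 1. In centred values, a group that departs from the others in many probe sets also has broader arrays. Quantile normalization can remove such a departure together with the spread, so it cannot tell them apart.

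The group that carried each interaction was read from the 4 simple differences of the same fit: IITR26 against WL711 at 14 DAA, the same at 28 DAA, and 28 against 14 DAA in each genotype. One group was said to stand apart where both differences it takes part in were called and the other two were not, with the reservation that a difference not called is not shown to be 0. By this reading 557 of the 933 interactions (59.7%) came from 1 group, and 521 of these from IITR26 at 28 DAA (279) or WL711 at 14 DAA (242). IITR26 at 14 DAA stood apart in 16 and WL711 at 28 DAA in 20. Without WL711 28 DAA replicate 1 the counts were 326, 220, 13 and 28 in the same order, with 966 interactions called. After quantile normalization 710 interactions were called and the counts were 135, 106, 73 and 39, so the same pair of groups led by a smaller margin and IITR26 at 14 DAA passed WL711 at 28 DAA.

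**Figure D1:**
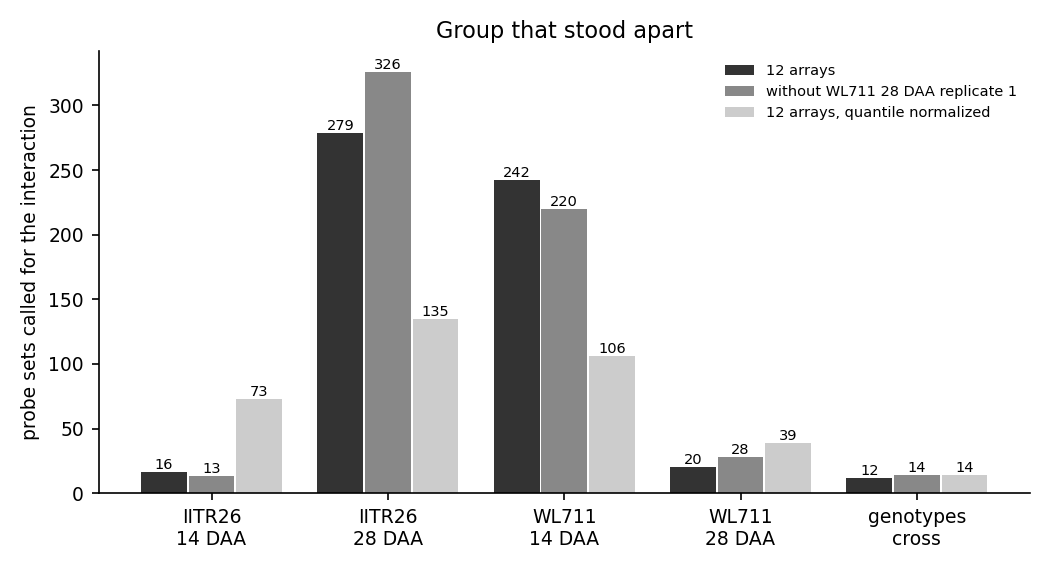
Number of probe sets called for the interaction in which 1 group stood apart, or in which the genotypes crossed, on the vertical axis, for all 12 arrays (dark bars), without WL711 28 DAA replicate 1 (mid grey) and after quantile normalization of the 12 arrays (light grey). With all 12 arrays, IITR26 at 28 DAA (279) and WL711 at 14 DAA (242) exceeded IITR26 at 14 DAA (16) and WL711 at 28 DAA (20), and quantile normalization brought the counts to 135, 106, 73 and 39.

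Seen by stage change, 355 of the 933 transcripts changed in IITR26 and were not called in WL711, 307 changed in WL711 and were not called in IITR26, and 105 changed in the same direction in both. In the remaining cases the stage change was opposite (6) or was called in neither genotype (160). By genotype, 334 differed at 14 DAA and not at 28 DAA, 367 at 28 DAA and not at 14 DAA, and 210 at neither stage by these thresholds.

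**Figure D2:**
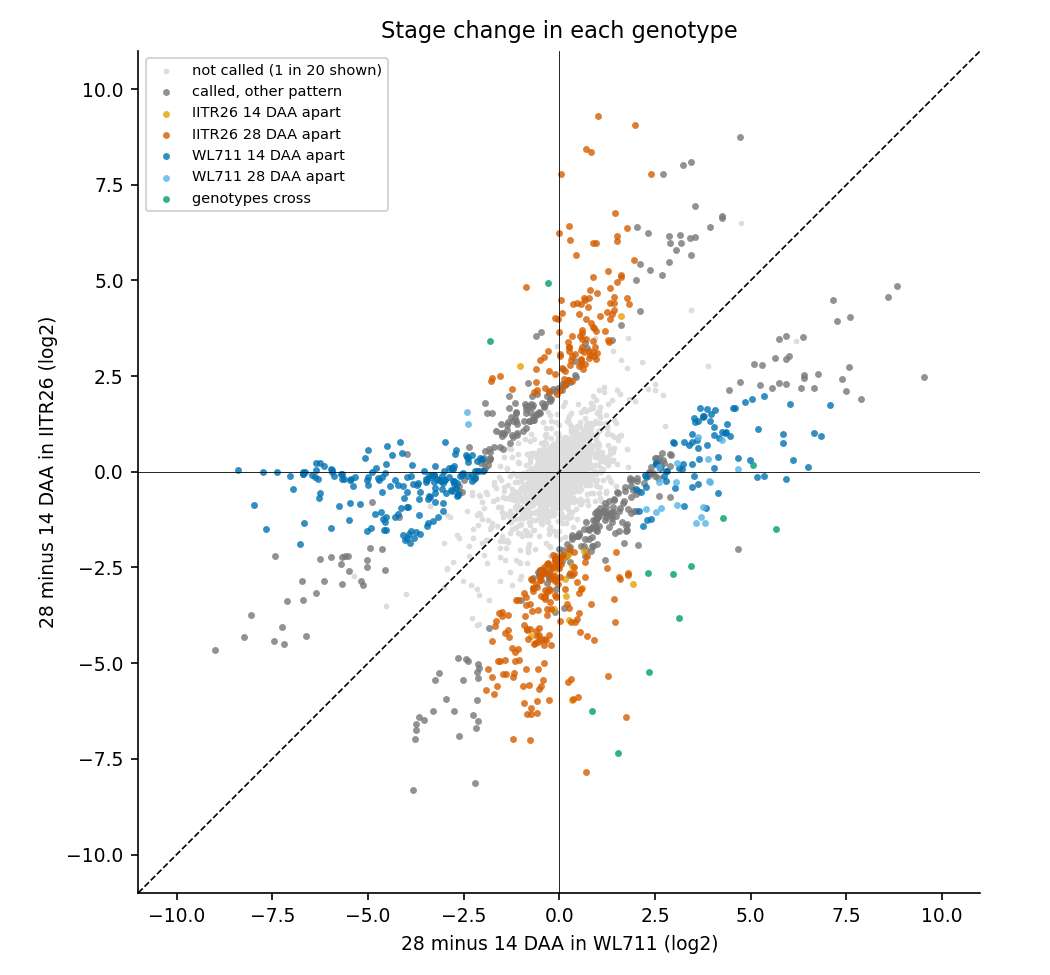
Change from 14 to 28 DAA in WL711 (horizontal) and in IITR26 (vertical), both log2, 1 point per probe set, with the 933 called interactions coloured by the group that stood apart and 1 in 20 of the other probe sets in light grey. Transcripts for which WL711 at 14 DAA stood apart lie along the horizontal axis, those for which IITR26 at 28 DAA stood apart lie along the vertical axis, and the dashed diagonal marks equal change.

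Names in what follows are the putative functions that the study assigned to 580 probe sets, 431 of them with a function, or gene symbols of the platform annotation, which named 200 probe sets. The study drew up those 580 entries from these arrays because they differed between the genotypes, and 270 of them (46.6%) were called for the interaction, 148 positive and 122 negative. Counts over such entries are therefore not independent evidence of a direction, and 46.6% is the share to read them against. For 698 called probe sets neither source gave a name. By their identifiers the 933 belong to 731 sequence clusters, so some transcripts are counted more than once. Wheat carries near-identical gene copies in its 3 genomes, and a probe set can collect signal from several of them; 331 of the 933 called probe sets (35.5%) have a suffix by which the array's design marks possible cross-hybridization, against 20.8% of all 61179.

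WL711 at 14 DAA was high in 166 probe sets. Here and for the other groups, the transcripts named were picked among those in which the 3 arrays of the group did not overlap the other 9, so that separation is a description and not a result. These transcripts fell in WL711 by a median of 3.88 on the log2 scale and had a median change of -0.22 in IITR26, and 68 of them had a name. Cystatin, an inhibitor of cysteine proteases (Ta.2786.1.S1_at), read 7.59, 8.30 and 6.51 in WL711 at 14 DAA, and the other 9 arrays lay between -0.26 and 0.38. The interaction was 7.38 (SE 0.479, adjusted p = 8e-06, limma), a ratio of stage ratios of 166. A second cystatin probe set (Ta.9883.1.S1_x_at) read 6.63, 6.82 and 5.08 in WL711 at 14 DAA, with the other arrays between -0.40 and 0.07, and its interaction was 6.49. In both probe sets the transcript stood out in young WL711 grain and had left that level by 28 DAA, and no stage change was called in IITR26. Cystatin entries did not all behave alike. Another entry named cystatin had an interaction of -4.05, with IITR26 at 28 DAA low and a stage change of -4.41 in IITR26.

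A leucine-rich repeat protein of the extensin family (Ta.9957.1.S1_at), a class of structural wall proteins, read 7.60, 7.69 and 7.13 in WL711 at 14 DAA against -0.82 to 1.21 elsewhere, with an interaction of 7.12 (SE 0.571). A pectin methylesterase inhibitor (TaAffx.117214.2.S1_s_at), whose family restrains the enzymes that remove methyl groups from wall pectin, read 6.60, 6.81 and 6.65 against -0.29 to 0.33. Its interaction of 6.64 had the smallest adjusted p among the named probe sets (SE 0.199, adjusted p = 5.4e-08, limma). Over the list, 9 of 16 pectinesterase inhibitor probe sets were positive and 0 negative (median 2.25), and WL711 at 14 DAA stood apart and high in 7 of them, among them TaAffx.12788.1.S1_at with an interaction of 5.50. The 7 members that were not called had interactions from -1.11 to 1.21. Of 31 probe sets for wall proteins and expansins, 13 were positive and 6 negative (median 1.89), WL711 at 14 DAA standing apart and high in 10. Across all 580 entries of the study the median was 0.31, and WL711 at 14 DAA stood apart and high in 89. After quantile normalization 6 pectinesterase inhibitor entries were positive, as were 8 of the wall protein entries, with 5 negative.

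A MYB transcription factor (Ta.27779.1.S1_at) read 7.16, 7.76 and 5.26 in WL711 at 14 DAA and -0.20 to 0.33 on the other 9 arrays, with an interaction of 6.63 (SE 0.658). MYB proteins are a large family of plant transcription factors, and in the list of 19 transcription factor probe sets 7 were positive and 4 negative (median 1.52), 5 of the positive ones being MYB entries of this pattern. A dirigent protein (Ta.362.1.S1_at), a family that steers the coupling of lignan and lignin precursors, read 6.88, 7.09 and 5.43 against -0.69 to 0.54 and had an interaction of 6.60. A defensin (Ta.20930.1.S1_at), a small antimicrobial peptide, read 7.07, 6.80 and 6.78 in WL711 at 14 DAA. Its WL711 28 DAA arrays were uneven, at -0.56, 1.75 and 1.63, and its interaction of 5.99 had an adjusted p of 2.3e-04, which became 0.016 after quantile normalization (value 4.16, limma).

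Members of other families shared the pattern at smaller size. A light-harvesting antenna protein of photosystem II (Ta.3249.1.S1_at), which binds chlorophyll and collects light in green tissue, read 6.26, 5.40 and 5.03 in WL711 at 14 DAA against -0.61 to 1.34, with an interaction of 4.87, and its adjusted p was 0.021 after quantile normalization. An amino acid transporter of the membrane (Ta.27916.1.A1_x_at) read 3.10, 2.76 and 2.62 against -0.85 to 0.50 (interaction 3.75). A lipid-transfer protein precursor (Ta.8258.2.S1_at), of the family of small lipid-binding proteins secreted into the wall, is one of the transcripts for which the study designed primers. Those primers are shown because they are the sequence the study ties to this probe set.
Ta.8258.2 forward: actgctagaccgagtatggctcagctata
Ta.8258.2 reverse: acacataacagggaacatgcgtgcgtg
It read 4.85, 4.98 and 4.87 in WL711 at 14 DAA and -0.92 to 0.48 on the other arrays, the 3 arrays thus agreeing closely, with an interaction of 4.11 (SE 0.263, adjusted p = 7.5e-06, limma).

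WL711 at 14 DAA was low in 76 probe sets, and 23 had a name. These transcripts rose in WL711 by a median of 3.72, beside a median change of 0.66 in IITR26. A xylanase inhibitor (Ta.1200.1.S1_x_at), a grain protein that blocks microbial xylanases, read -6.70, -7.43 and -5.09 in WL711 at 14 DAA, and the other arrays lay between -0.70 and 0.62. Its interaction was -5.88 (SE 0.61, adjusted p = 1.4e-04, limma), and a second probe set of the same transcript, which the platform names xip (Ta.1200.1.S1_at), gave -5.63. In the first of the pair the genotypes differed by 5.88 at 14 DAA, and by -0.00406 at 28 DAA, which was not called.

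L-1, a precursor of antimicrobial peptides (TaAffx.19945.1.S1_at), read -7.01, -7.89 and -6.53 in WL711 at 14 DAA, but the 3 arrays of WL711 at 28 DAA were at 0.93, -1.96 and -2.13. Its interaction of -5.78 carried the widest SE of this set's named members (0.92, adjusted p = 0.0022), and the adjusted p was 0.08 after quantile normalization. A cupin (Ta.30754.1.S1_at), from the family that holds the seed globulins, read -3.66, -3.90 and -3.27 against -0.84 to 0.81 (interaction -3.31), and an alpha-gliadin (Ta.24114.18.S1_x_at), a storage protein of the starchy endosperm, read -3.07, -2.46 and -2.53 against -0.44 to 0.97 (interaction -3.14). A tonoplast intrinsic protein, TIP3 (Ta.13400.2.A1_at), a water channel of storage vacuoles, read -2.98, -3.69 and -3.00 against -0.69 to 0.66 (interaction -2.68, with an adjusted p of 0.012 after quantile normalization). In the storage protein list 3 of 6 entries were negative and 0 positive (median -3.01), all 3 with WL711 at 14 DAA low. The study listed its entries for a genotype difference, so probe sets outside them are those that choice left over, and 5.54% of all such probe sets with a platform gene were called. Of the 16 among them that the platform names as gliadins, glutenins or avenin-like proteins, 0 were called by limma or by the unmoderated test (median -0.27), although 7 had an unadjusted p under 0.05, all negative. Without WL711 28 DAA replicate 1, 1 of them was called.

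IITR26 at 28 DAA was low in 165 probe sets, and 53 had a name. Here the fall was in IITR26, by a median of 3.59, beside a median change of -0.40 in WL711. The egg apparatus protein entry (TaAffx.79513.1.S1_at) read -5.71, -5.39 and -5.68 in IITR26 at 28 DAA and -1.30 to 1.29 on the other arrays, with an interaction of -8.16 (SE 0.402, adjusted p = 1.3e-06, limma), the largest negative one among named probe sets in which 1 group stood apart. A nonspecific lipid-transfer protein (Ta.22038.1.S1_at) read -4.58, -4.73 and -4.53 against -0.83 to 1.10 (interaction -6.62). A MYB family factor (TaAffx.53659.1.S1_s_at) read -4.65, -5.86 and -4.73 against -1.53 to 1.19 (interaction -6.36), opposite in sign to the MYB entries that were high in young WL711 grain. Of 28 lipid-transfer and transfer cell entries, 12 were negative and 7 positive (median -1.03), with IITR26 at 28 DAA low in 9 and WL711 at 14 DAA high in 5.

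Histone H4, a core protein of the nucleosome (Ta.28691.1.A1_x_at), read -6.39, -6.12 and -5.42 in IITR26 at 28 DAA, and the other 9 arrays lay between -0.40 and 0.68. Its interaction was -5.67 (SE 0.39, adjusted p = 9.8e-06, limma), and a second H4 probe set (TaAffx.132315.1.S1_at) gave -5.16. In IITR26 the H4 probe sets fell by 5.95 and 5.69 between the stages, while in WL711 they changed by -0.28 and -0.53 and were not called. In the list of 21 histone and DNA replication entries, 12 were negative and 1 positive (median -2.78), and IITR26 at 28 DAA was the low group in all 12, beside 51 of all 580 entries. The other 8 were not called. Among the 12 negative ones, named here after their values were seen, were the MCM2, MCM3, MCM4 and MCM5 subunits of the helicase that opens replication origins (-2.83, -3.36, -2.93 and -3.19). So were the RPA2A subunit that coats single-stranded DNA (-3.11) and 1 of 3 entries for PCNA, the sliding clamp of the polymerase (-2.03). The exception was a DNA topoisomerase (Ta.10964.1.A1_at), positive at 2.003 with WL711 at 14 DAA high. Not every dividing-cell marker took part: the other two PCNA entries gave -0.73 and -0.03 and were not called.

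Of 18 H2A and H2B probe sets that the platform names, 1 was among the study's entries, with an interaction of 1.19 that was not called. Of the other 17, 9 were negative and 0 positive (median -3.36). Among all probe sets with a platform gene outside the study's entries, 5.54% were called in either direction, and 0.796% of all probe sets were negative. The negative calls among the 17 were 9 after quantile normalization and 11 without WL711 28 DAA replicate 1. These are closely related gene copies, most with a cross-hybridization suffix, and of the 6 without one 2 were negative. Their members did not move as one: 5 had IITR26 at 28 DAA low, 2 wcH2B-8 probe sets had IITR26 at 14 DAA high (interactions -3.41 and -3.44), and the wcH2B-6 and H2A-2 probe sets had interactions of -0.18 to 0.04. Cell cycle proteins and mitotic motors gave 4 negative of 9 entries and 0 positive (median -1.77), near the 46.6% called among all entries, and 1 after quantile normalization and 2 with the unmoderated test. E2F TARGET GENE 1 (Ta.3224.1.A1_at) read -2.59, -2.32 and -2.69 in IITR26 at 28 DAA against -0.33 to 0.68 (interaction -2.46), and a kinesin motor protein (Ta.16123.1.A1_at), which walks along microtubules, had an interaction of -2.54. Tubulins, the microtubule subunits, gave 0 calls by limma or the unmoderated test among 10 probe sets (median -0.53), 5 of them negative at an unadjusted p under 0.05.

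Metabolic enzymes and a photosystem subunit were low in the same group. The photosystem II 10 kDa polypeptide (Ta.28750.1.S1_at) read -4.19, -3.78 and -3.80 in IITR26 at 28 DAA against -0.91 to 1.58, with an interaction of -4.14. Isoamylase wDBE-D1 (Ta.2773.1.S1_at), a debranching enzyme of starch synthesis, read -2.04, -2.33 and -2.42 against -0.38 to 0.70 (interaction -3.03). Glucose-1-phosphate adenylyltransferase (Ta.2797.2.S1_x_at), which makes the ADP-glucose used for starch, read -2.77, -2.26 and -2.99 against -0.04 to 0.83. Its interaction of -2.07 lay close to the threshold and fell short of it without IITR26 28 DAA replicate 3 (-1.91) or IITR26 14 DAA replicate 2 (-1.92). These were the 2 called of 5 starch and sugar entries (0 positive, median -0.88), so that the list had 1 called in either case, and it had 4 without WL711 28 DAA replicate 2 and 1 after quantile normalization. Of 9 photosynthesis entries 2 were positive and 1 negative (median 1.11), against 0 and 1 after quantile normalization (median 0.55). Of 36 photosynthesis probe sets named by the platform alone, 0 were called by limma or the unmoderated test (median 3.7e-04, 4 with an unadjusted p under 0.05).

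IITR26 at 28 DAA was high in 114 probe sets, and 15 of them had a name. The rise in IITR26 had a median of 3.58, beside 0.60 in WL711. An early nodulin-like protein (Ta.6107.2.S1_a_at), from a family of copper-protein-like membrane proteins, read 7.89, 8.89 and 8.66 in IITR26 at 28 DAA, and the other arrays lay between -0.55 and 2.11, with the upper end set by 1 array of IITR26 at 14 DAA. The interaction was 7.75 (SE 0.667, adjusted p = 3.9e-05, limma). A late embryogenesis abundant protein of group 1 (Ta.13396.1.S1_at), which protects cell contents during drying, read 7.30, 8.11 and 9.06 against -1.02 to 1.39, with an interaction of 7.07 (SE 0.475). It had a stage change of 1.98 in WL711 and of 9.06 in IITR26. An aminotransferase (TaAffx.21593.1.S1_at) read 5.71, 5.79 and 5.19 against -0.56 to 0.12 (interaction 5.23). A pair of NAC transcription factors, named after their values were seen, had the same shape (NAC67 with an interaction of 3.95 and a NAC domain protein with 3.61).

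**Figure D3:**
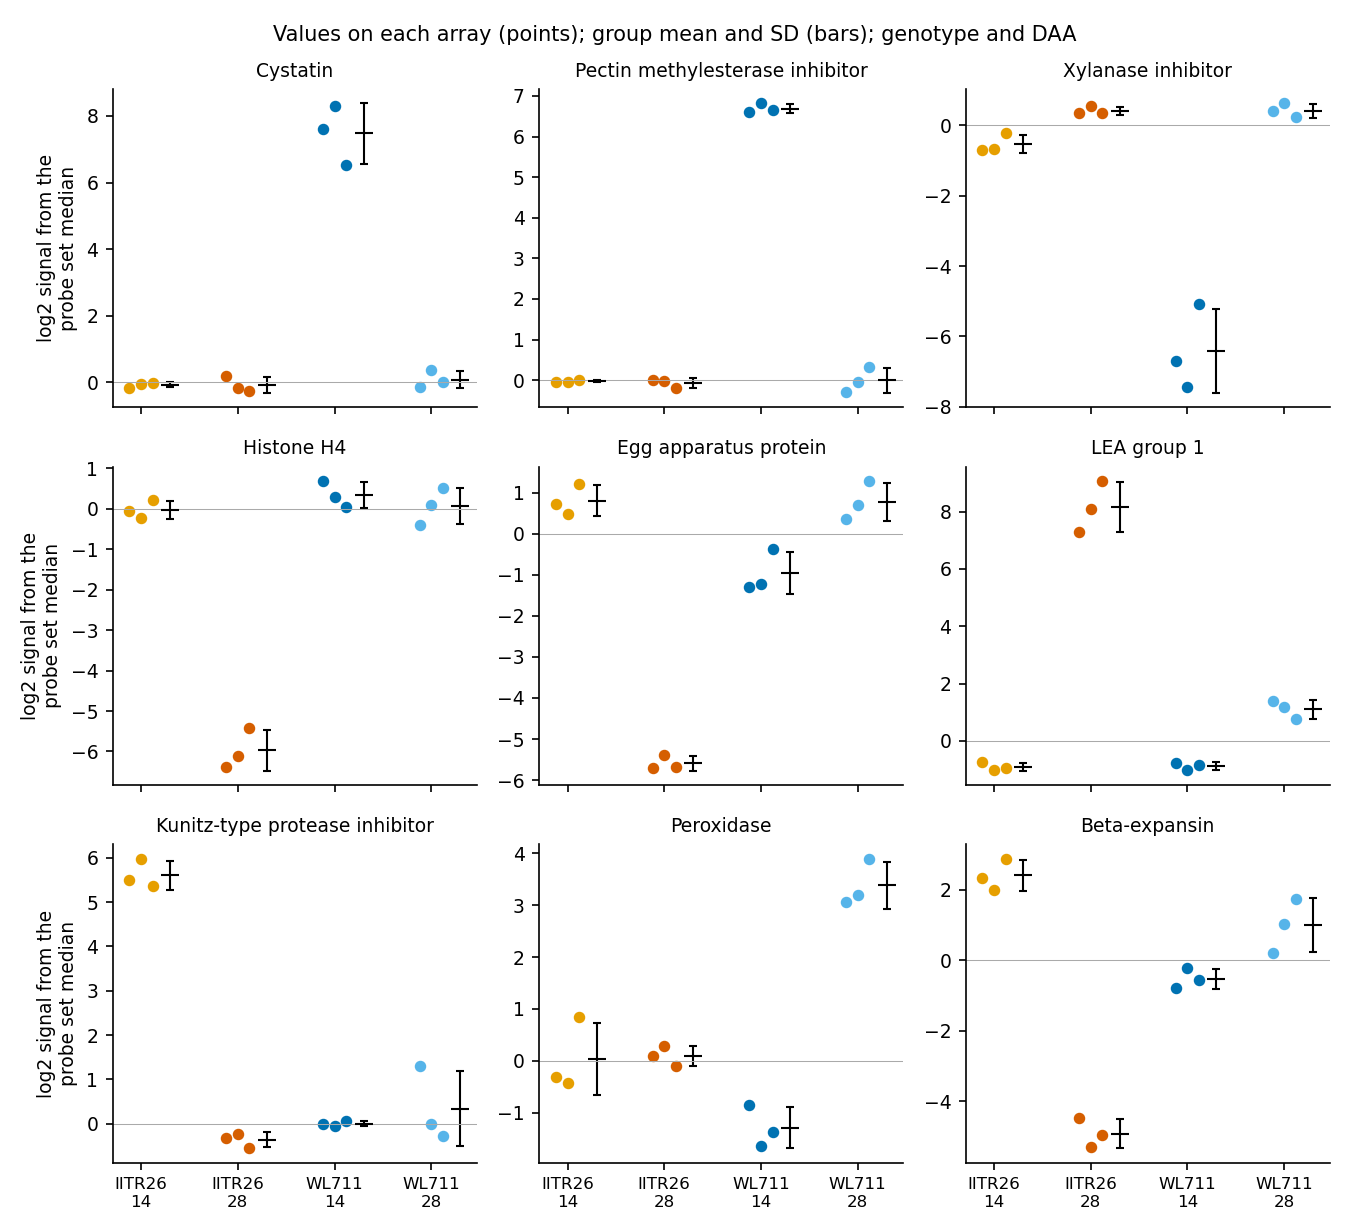
Log2 distance of the signal from the 12-array median (vertical axes, scaled per panel) for 9 named probe sets, with 1 point per array and the group mean with its SD beside them. Cystatin and the pectin methylesterase inhibitor were high in WL711 at 14 DAA, the xylanase inhibitor low there, histone H4 and the egg apparatus protein low and LEA group 1 high in IITR26 at 28 DAA, the Kunitz-type inhibitor high in IITR26 at 14 DAA, the peroxidase high in WL711 at 28 DAA, and the beta-expansin crossed.

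Proteins of the drying seed moved in both directions. Of 11 seed maturation entries 4 were positive and 4 negative (median -0.33), and the median stage change was 3.51 in IITR26 and 3.60 in WL711. Positive were the LEA group 1 entry Ta.13396.1.S1_at and a caleosin of the oil body surface (Ta.14471.3.S1_a_at). So were, named after their values were seen, a dehydrin (3.02) and a small hydrophilic seed protein (2.89). Negative were LEA protein 12 (Ta.12657.1.S1_at) and, named in the same way, an embryo globulin (-2.76), an embryonic DC-8-like protein (-2.21) and a desiccation-related protein (-3.38), the last 3 with WL711 at 14 DAA low. After quantile normalization the list had 4 positive calls and 0 negative ones. Another 10 probe sets that the platform names as Em, Rab15, LEA1 or the dehydrin COR410 rose by a median of 7.95 in IITR26 and 7.59 in WL711, and 0 were called for the interaction by limma or the unmoderated test (median -0.09, and 1.29 after quantile normalization, 2 with an unadjusted p under 0.05). Em is a defining transcript of the maturing embryo, and in both genotypes it followed the labelled stage.

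LEA protein 12 was also a transcript with primers, shown as the sequence the study ties to it.
Ta.12657.1 forward: cgtgcagtacaataaggacgacggcc
Ta.12657.1 reverse: tgcagattcaggtgctgcgtcggga
It went from -1.88, -1.64 and -0.64 at 14 DAA to 1.90, 2.15 and 2.33 at 28 DAA in IITR26. In WL711 it went from -5.33, -5.43 and -5.28 to 1.46, 0.96 and 0.64. It rose in both genotypes, by 3.51 in IITR26 and 6.37 in WL711, from a lower start in WL711, which made the interaction -2.85 (SE 0.403, adjusted p = 0.0011, limma, and 0.061 after quantile normalization). The other 3 transcripts with primers were not called for the interaction: aleurone-specific NAM-1 gave -1.85 (SE 0.306), a metallothionein, a metal-binding protein, -1.18 (SE 0.251), and the SecE subunit of the protein translocation channel -0.47 (SE 0.274). SecE differed between the genotypes by 5.51 at 14 DAA and 5.03 at 28 DAA, a genotype difference of similar size at both stages. NAM-1 passed the fold threshold without WL711 14 DAA replicate 3 (-2.01) or without WL711 28 DAA replicate 1 (-2.03).

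Fewest interactions came from IITR26 at 14 DAA, 16 of them, against 73 after quantile normalization. It was high in 14 probe sets and low in 2. A Kunitz-type protease inhibitor (Ta.10028.1.S1_at) read 5.49, 5.98 and 5.36 in IITR26 at 14 DAA against -0.55 to 1.30, and fell by 5.97 in IITR26 (interaction -6.31, SE 0.455). An abscisic acid related protein (Ta.10310.3.S1_at) read 3.06, 3.61 and 3.46 in that group, while the other arrays spread from -3.08 to 0.69, lowest in WL711 at 14 DAA (interaction -4.87). A glucan synthase-like enzyme of wall polysaccharide synthesis (Ta.26351.1.A1_at) read 3.81, 4.31 and 4.13 against -0.46 to 0.44 (interaction -4.13). Among the 2 low ones, a glutathione S-transferase (Ta.27096.1.S1_at), a detoxifying enzyme, read -1.55, -1.60 and -1.83 against -1.17 to 1.42 and had an interaction of 3.79.

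WL711 at 28 DAA was high in 18 probe sets and low in 2. A peroxidase precursor (Ta.9334.1.S1_s_at) read 3.05, 3.20 and 3.90 there against -1.64 to 0.84. It rose by 4.67 in WL711 with a change of 0.06 in IITR26 (interaction -4.61, SE 0.466). Other peroxidase precursors that the study lists with stress responses were not lower in IITR26 than in WL711 at 28 DAA. A cytochrome P450 (Ta.21115.3.A1_s_at) read 2.65, 2.57 and 2.96, but 1 array of IITR26 at 14 DAA was at 2.11 while its fellows were at -0.03 and 0.03. Its interaction of -3.94 had an adjusted p of 0.002, and of 0.015 after quantile normalization (limma). A family 10 glycosyl hydrolase (Ta.6243.1.A1_at), a family that includes xylanases, read 1.54, 2.11 and 2.24 against -0.76 to 1.15 (interaction -3.57).

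In 12 probe sets the genotypes crossed, that is, the difference between them was called at both stages in opposite directions. IITR26 was the higher one at 14 DAA and the lower one at 28 DAA in 10 of them, and the reverse held in 2. Beta-expansin (Ta.3749.1.S1_s_at), a protein that loosens the cell wall, read 2.35, 2.01 and 2.88 in IITR26 at 14 DAA and -4.48, -5.31 and -4.98 at 28 DAA. The same transcript read -0.79, -0.22 and -0.56 in WL711 at 14 DAA and was at 0.22, 1.02 and 1.75 at the later stage. IITR26 thus went from 2.94 above WL711 to 5.92 below it on the log2 scale, and the interaction of -8.86 was the most negative of all 61179 (SE 0.504, adjusted p = 3.6e-06, limma). An expansin precursor (Ta.3729.1.A1_at) crossed the same way, from 3.13 to -3.81 (interaction -6.94). Expansin entries did not share one direction. Other entries, among them another expansin precursor, had positive interactions of 4.67, 3.30 and 2.89, each with WL711 at 14 DAA high. Expansin EXPB2 was negative (-2.94) and did not cross.

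Other crossing transcripts came from different families. Flavanone 3-hydroxylase (Ta.14243.1.A1_at), an early enzyme of flavonoid synthesis, read 1.44, 1.21 and 2.08 in IITR26 at 14 DAA and -3.32, -4.09 and -3.52 at 28 DAA, against -0.77, -0.90 and -0.66 and then 0.66, 1.40 and 2.62 in WL711 (interaction -7.55). The ice recrystallization inhibition protein (Ta.7108.1.S1_at), of a family that limits the growth of ice crystals, differed by 4.56 at 14 DAA and -2.59 at 28 DAA (interaction -7.14). Here the movement was in WL711, which rose by 5.65, whereas the change in IITR26 was -1.50 and was not called. A gibberellin-regulated GASA protein (Ta.30685.1.S1_s_at) differed by 2.10 and then -3.40, with a rise of 4.29 in WL711 (interaction -5.50). The caleosin already named went the opposite way, from -2.35 to 2.88, with a rise of 3.43 in IITR26 (interaction 5.24). Without WL711 14 DAA replicate 1, 7 probe sets crossed.

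In 105 probe sets both genotypes changed in the same direction, but to different extents. In 57 probe sets both stage changes and the difference at 14 DAA were called and the difference at 28 DAA was not: 29 fell in both genotypes and 28 rose in both. Bifunctional dihydroflavonol 4-reductase flavanone 4-reductase (TaAffx.35126.1.A1_at), another flavonoid enzyme, rose by 3.03 in IITR26 and 6.01 in WL711 from a start 3.71 lower in WL711 (interaction -2.98). Of the 5 flavonoid and lignin entries 4 were negative and 0 positive (median -2.94). In 46 probe sets both stage changes and the difference at 28 DAA were called and that at 14 DAA was not, 22 falling and 23 rising in both genotypes. The stage change was called in opposite directions in 6 probe sets, all falling in IITR26 and rising in WL711, among them LTPL39 of the protease inhibitor, seed storage and lipid-transfer family (Ta.3605.2.S1_a_at), at -2.03 and 4.68 (interaction -6.71).

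The remaining gene lists moved in both directions or little. Protease and amylase inhibitors had 5 positive and 8 negative of 15 entries (median -2.32, and 4 and 5 after quantile normalization), the positive ones all with WL711 at 14 DAA high and 4 of the negative ones with it low. Among 11 such inhibitors outside the study's entries 1 was called, and it was negative (median -0.94). All 11 were negative at an unadjusted p under 0.05 (limma). Antimicrobial and pathogenesis-related proteins had 9 positive and 11 negative of 28 (median -0.91), with WL711 at 14 DAA high in 5 and low in 4, and 5 and 9 after quantile normalization. Hormone-related proteins had 5 positive and 3 negative of 15 (median 1.0), and 1 positive and 2 negative after quantile normalization (median 1.31). Metal and solute transport proteins had 1 positive and 4 negative of 15 (median -1.39), and 1 and 2 after quantile normalization. One of 7 ribosomal and translation entries was called, 60S ribosomal protein L9 (Ta.28317.3.S1_x_at) at 2.26. The probe set of the same protein without a cross-hybridization suffix (Ta.28317.3.S1_at) gave 1.75 and was not called (adjusted p = 0.055, limma). Heat shock proteins had 0 called of 4 by limma or the unmoderated test (median 0.84, 2 with an unadjusted p under 0.05), and without IITR26 14 DAA replicate 1 the count was 2. Thionins outside the study's entries had 0 called of 5 by the same tests (median -0.46, 4 with an unadjusted p under 0.05, all negative).

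**Figure D4:**
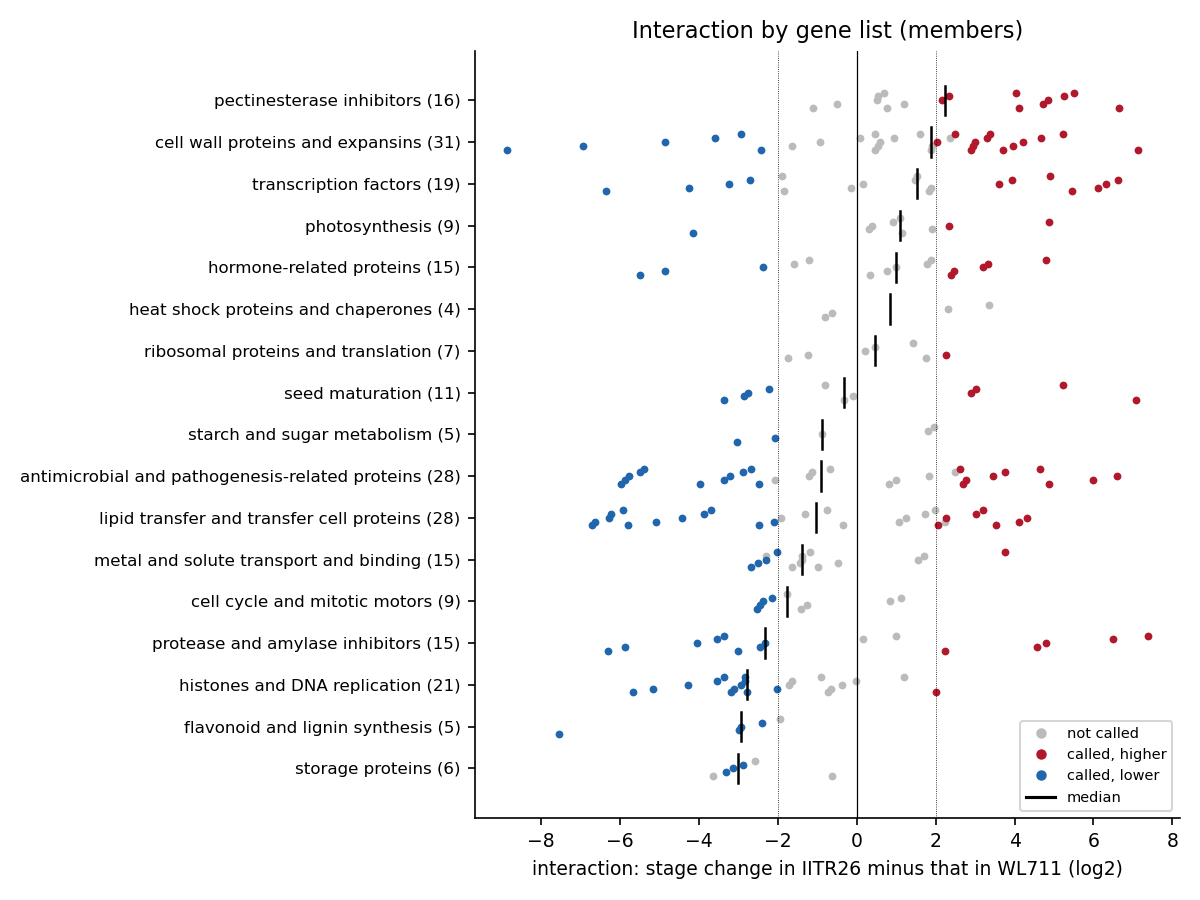
Interaction (horizontal axis, log2: stage change in IITR26 minus that in WL711) of every entry in 17 gene lists drawn from the study's functions, with the number of entries in brackets, called entries in red (positive) or blue (negative), others in grey and the median as a black bar. Pectinesterase inhibitors (median 2.25) lie on the positive side, histones and DNA replication (median -2.78) and storage proteins (median -3.01) on the negative side, and seed maturation proteins on both.

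The 3 probe sets with the largest interactions after beta-expansin had no name. Ta.10018.1.S1_at read -6.87, -6.78 and -6.92 in IITR26 at 28 DAA against -0.23 to 1.50 (interaction -8.56). TaAffx.48201.1.S1_s_at read 9.05, 9.06 and 6.60 in WL711 at 14 DAA against -0.33 to 0.15 (interaction 8.45). Ta.5810.1.S1_at read 7.38, 8.71 and 10.8 in IITR26 at 28 DAA against -0.43 to 1.38 (interaction 8.28). In all 3 the group that stood apart was one of the same pair, WL711 at 14 DAA or IITR26 at 28 DAA. Around the fold threshold, the named probe sets just inside it were a tetratricopeptide repeat protein and the DNA topoisomerase (both 2.003), a vacuolar-sorting receptor (-2.01) and a 2-phosphoglycerate kinase-related protein (-2.02), and those just outside were a nonspecific lipid-transfer protein (1.99), an actin-binding protein (1.99), an H2A-9 histone (-1.96) and cinnamoyl-CoA reductase (-1.94).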

How the data were processed

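RNA from 12 grain samples was hybridized to Affymetrix wheat arrays. The deposited values are log2 signals that the authors normalized by Robust Multi-array Average (RMA) in GeneSpring GX; in the file they are also centred, each probe set having a median of 0 over the 12 arrays, a step not given in the sources used here. Centring removes brightness and leaves differences between arrays unchanged. The precision rests on 3 arrays per group.

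Groups followed the labels. One limma fit (version 3.58.1, R 4.3.3) with 4 group means, 8 residual degrees of freedom and empirical Bayes moderation gave the interaction and the 4 simple differences, with Benjamini-Hochberg adjustment over 61179 probe sets (111 control probe sets left out). Calls needed an adjusted p of at most 0.01 and an absolute log2 value of at least 2. The procedure was also run on simulated independent normal noise with shifts planted in single groups. The outcome is not given here, and no result rests on it. No permutation test was used, since 3 arrays against 3 allow no exact p below 0.1. The study tagged ears in 3 replicates and calls the arrays of a group biological replicates. The sources used here do not say whether they came from separate plants, so p-values measure only the spread between these samples.

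Named probe sets were, for each group and direction, the 3 named ones with the largest interaction and no overlap, up to 4 crossing ones in each direction, the 2 largest of each gene list, those with primers, the 2 largest in each direction whatever the name, and the 2 nearest the fold threshold on either side. Lists were key words matched to the study's functions, and symbols of the platform (matched by identifier for 1272 of 1273 probe sets with 1 gene, reference IWGSC CS RefSeq v2.1). Members, lists and rules were chosen with earlier results of these data known, and the symbol lists after the files were seen. Lists were described by counts and medians without a set test. No chromosome positions were used here. Alternatives were a replicate block, robust moderation, an unmoderated interaction test, array weights, 2 other normalizations, a filter on variation (under 50%), omission of cross-hybridizing probe sets, other thresholds and omission of each array.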

Additional observations from a re-analysis of the deposited data

Results flagged for a closer look

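Each named probe set below was singled out because its change from 14 to 28 DAA differed between IITR26 and WL711 by the limma interaction test. Values are interactions on the log2 scale, positive where the transcript moved further upward in IITR26.

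Among transcripts high in WL711 at 14 DAA, the cystatin probe sets of this pattern gave 7.38 and 6.49 and the extensin family protein 7.12. In the same group the pectin methylesterase inhibitors gave 6.64 and 5.50, the MYB factor 6.63 and the dirigent protein 6.60. Smaller values in that group were 5.99 for the defensin, 4.87 for the chlorophyll a/b-binding protein, 4.11 for the lipid-transfer protein precursor, 3.75 for the amino acid transporter and 2.003 for the DNA topoisomerase. The unnamed TaAffx.48201.1.S1_s_at gave 8.45. Among transcripts low in WL711 at 14 DAA, the xylanase inhibitor probe sets gave -5.88 and -5.63, L-1 gave -5.78, the cupin -3.31, the alpha-gliadin -3.14, TIP3 -2.68 and the 2-phosphoglycerate kinase-related protein -2.02.

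In IITR26 at 28 DAA, the high transcripts were the unnamed Ta.5810.1.S1_at at 8.28, the early nodulin-like protein at 7.75, LEA group 1 at 7.07, the aminotransferase at 5.23 and the tetratricopeptide repeat protein at 2.003. The low ones were the unnamed Ta.10018.1.S1_at at -8.56, the egg apparatus protein at -8.16, the nonspecific lipid-transfer protein at -6.62, the MYB family factor at -6.36 and the H4 histones at -5.67 and -5.16. Lower in size were the photosystem II polypeptide at -4.14, isoamylase at -3.03, E2F TARGET GENE 1 at -2.46 and glucose-1-phosphate adenylyltransferase at -2.07.

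IITR26 at 14 DAA carried the Kunitz-type inhibitor (-6.31), the abscisic acid related protein (-4.87), the glucan synthase-like enzyme (-4.13) and the glutathione S-transferase (3.79). WL711 at 28 DAA carried the peroxidase (-4.61), the cytochrome P450 (-3.94) and the glycosyl hydrolase (-3.57). The crossing transcripts were beta-expansin (-8.86), flavanone 3-hydroxylase (-7.55), the ice recrystallization inhibition protein (-7.14), the expansin precursor (-6.94), the GASA protein (-5.50) and the caleosin (5.24). In the other patterns, LTPL39 gave -6.71, the bifunctional dihydroflavonol 4-reductase flavanone 4-reductase -2.98, LEA protein 12 -2.85, the kinesin -2.54, ribosomal protein L9 2.26 and the vacuolar-sorting receptor -2.01.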

How the results depend on the processing

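No named interaction changed sign under any alternative run in which it was tested. Of 54 called ones, 41 were also called after quantile normalization, 47 with the unmoderated test and 52 with array weights. The variation filter left only 33 of the 54 to test, and omission of cross-hybridizing probe sets left 36. Those left were all called, and the named calls taken out were not tested in these runs. With a replicate block, 907 interactions were called (425 positive, 482 negative) and all 54 named calls were kept. Deviations of same-numbered arrays correlated above 0.1 in 2 of 18 pairs, at 0.155 and 0.188 between IITR26 and WL711 at 14 DAA. With 3 arrays per group such correlations cannot show whether the numbers paired the samples.

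The count of 933 (446 positive, 487 negative) became 566 (258 and 308) with the unmoderated test, 581 (297 and 284) without cross-hybridizing probe sets and 2510 (1178 and 1332) at a log2 threshold of 1. Leaving out 1 array gave 784 to 966 interactions, 376 to 489 positive and 402 to 545 negative. IITR26 at 14 DAA stood apart in 10 with the unmoderated test, 73 after quantile normalization, 57 at a threshold of 1, 53 when the group with the mean farthest from the others was taken and 28 with simple differences at 1, an alternative chosen after seeing the data (11 to 16 without 1 array). IITR26 at 28 DAA stood apart in 135 after quantile normalization, 168 without cross-hybridizing probe sets, 758 at a threshold of 1 and 439 by the farthest mean (235 to 329 without 1 array). WL711 at 14 DAA stood apart in 155, 106, 444 and 378 with the unmoderated test, quantile normalization, the threshold of 1 and the farthest mean (186 to 274 without 1 array). WL711 at 28 DAA stood apart in 39 after quantile normalization, 13 with the variation filter, 8 without cross-hybridizing probe sets, 70 at a threshold of 1, 63 by the farthest mean and 38 with simple differences at 1 (19 to 28 without 1 array). Crossing counts were 7 with the unmoderated test, 4 with the variation filter and 77 at a threshold of 1 (7 to 14 without 1 array). The variation filter and the thresholds change how many probe sets can be called; the cause of the other shifts was not tested. Signal over background could not be read from centred values.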
